A study of Homo sapiens with 4 samples.

Results

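The replication-dependent histone genes were examined in HepG2, an established human hepatocellular carcinoma cell line, as the protein-coding genes whose symbols begin with HIST1H, HIST2H, HIST3H or HIST4H. The rule selected 72 of 58302 genes, namely 6 of linker histone H1, 17 of H2A, 18 of H2B, 16 of H3 and 15 of H4. The HIST1 cluster on chromosome 6 held 56 of them, the HIST2 and HIST3 clusters on chromosome 1 held 12 and 3, and HIST4H4 lay alone on chromosome 12. Cells had received 1 mM melatonin, a pineal hormone, or the solvent DMSO, and RNA was sequenced after 24 h and after 48 h. Each of the 4 conditions is 1 library with no replicate, so every comparison describes these libraries, and no test of melatonin or of time was run, since such a test would have to take the difference between times, or between treatments, as its error. The study asked which transcripts melatonin altered, and the comparisons that follow are melatonin over DMSO at each time and 48 h over 24 h under each treatment. The library pairs share libraries, so the comparisons are not independent of each other.

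Replication-dependent histone genes supply the H2A, H2B, H3 and H4 that form the nucleosome core and the H1 that binds linker DNA, and their mRNAs accumulate during S phase. The usual mRNA has no poly(A) tail and ends shortly after a conserved stem-loop, which is bound by SLBP and cut by a complex that holds the U7 small nuclear ribonucleoprotein and the nuclease CPSF3. Some of these genes are also annotated with longer transcripts that run past the stem-loop to a polyadenylation signal, and the RNA sequenced here had been purified as polyadenylated RNA according to the study's methods. Replication-independent variants such as H2AFZ, H3F3A, H3F3B and H1F0 come from scattered genes whose mRNAs carry a poly(A) tail.

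The stem-loop was found within 150 bases after the stop codon of 71 of the 72 members, 22 to 67 bases after the stop (median 35), and it had 10 distinct forms of 16 bases. The commonest form stood behind 41 members. The stem-loops of members that carry the results are printed here because the position of the gene model's end relative to them separates these genes further on. They lie in the 3' UTR, are read on the coding strand of hg38 (GRCh38), and have the 16 bases in capitals with 5 bases on either side.
HIST1H1C, chr6:26055739-26055764, minus strand: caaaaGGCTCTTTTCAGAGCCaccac
HIST1H2AC, chr6:26124664-26124689, plus strand: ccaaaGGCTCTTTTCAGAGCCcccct
HIST2H2AC, chr1:149887386-149887411, plus strand: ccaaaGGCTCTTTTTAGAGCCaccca
HIST2H2BE, chr1:149886183-149886208, minus strand: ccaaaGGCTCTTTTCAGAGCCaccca
HIST1H2BC, chr6:26123467-26123492, minus strand: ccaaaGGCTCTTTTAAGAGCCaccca
HIST1H3E, chr6:26225591-26225616, plus strand: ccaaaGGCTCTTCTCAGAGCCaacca
HIST4H4, chr12:14770719-14770744, minus strand: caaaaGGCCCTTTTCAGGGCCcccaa

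The gene models in the deposited tables differed in where they ended. Of the 72 members, 33 were modelled as the coding sequence alone, 13 were longer and ended near the stem-loop, and 25 ran over 100 bases past it, while for 1 model, the copy of HIST1H3D with the identifier ENSG00000282988, no stem-loop was found. Of the 13, 8 ended 6 to 86 bases past the stem-loop, 2 ended within it and 3 stopped before it. GENCODE 44 annotates a transcript that runs past the stem-loop for 18 members, and in 17 of these such a transcript carries AATAAA or ATTAAA in its last 40 bases. The signal of the transcript that reaches farthest is printed in capitals for 4 well-covered members, on the coding strand of hg38, because these are the ends at which the longer annotated transcripts stop.
HIST1H2AC, chr6:26139078-26139103: ggcatgaggtAATAAAaggtaatgca
HIST2H2BE, chr1:149884467-149884492: tattgttattAATAAAgttaccaatt
HIST1H2BC, chr6:26114880-26114905: taaagacaaaATTAAAataactccta
HIST1H3E, chr6:26227442-26227467: tgagatgtaaAATAAAagattactga
On the genome, with any introns counted, these transcripts ended 14432 bases past the stem-loop in HIST1H2AC and 1729 in HIST2H2BE. They ended 8599 past it in HIST1H2BC and 1862 in HIST1H3E. The distances are not lengths of RNA, since the models of HIST1H2AC and HIST1H2BC hold 1668 and 834 bp. The ends of the gene models were likewise placed by genome position. Whether the spliced forms hold the stem-loop was not tested. HIST1H1C and HIST2H2AC had no transcript annotated past the stem-loop.

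The members took few reads. Whole reads per gene were recovered from the deposited FPKM values (fragments per kilobase of gene model, scaled to library size), and the libraries held 21616676 to 23086025 reads on genes, of which the 72 members took 877 in the 24 h DMSO library, 1161 in its melatonin counterpart, 1703 in the 48 h DMSO library and 1694 in its counterpart. Both 48 h libraries therefore held more histone reads than both 24 h libraries. No read was listed in any library for 16 members, 33 had a read in all 4, 21 reached an FPKM of 1 in a library and 9 reached 50 reads in a library. A zero here is not proof of silence, because RN7SK, RMRP, RPPH1 and TERC, RNAs without a poly(A) tail that cells need or commonly make, were also listed at 0 in all 4 libraries, while RN7SL2, an RNA of the signal recognition particle, took 27436 to 53719 reads. The mitochondrial share of reads was 19.96% and 16.6% at 24 h and 9.77% and 11.9% at 48 h, and its part in the differences between times was not tested. Hepatocyte markers were high (ALB 2717 to 3343 FPKM), whereas 7 markers of fibroblasts, endothelium and leukocytes summed to 1.31 to 1.84 FPKM, or 118 to 209 reads. Of these, the fibroblast markers COL3A1 and DCN were at 0 and the leukocyte marker PTPRC was at or below 0.00589 FPKM. The sum thus lay almost entirely on the fibroblast marker COL1A1, the endothelial markers PECAM1 and VWF and the leukocyte marker CD14. Of these, 1 reached FPKM 1, in the 24 h DMSO library. How the sum was split among them is not given here.

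**Figure D1:**
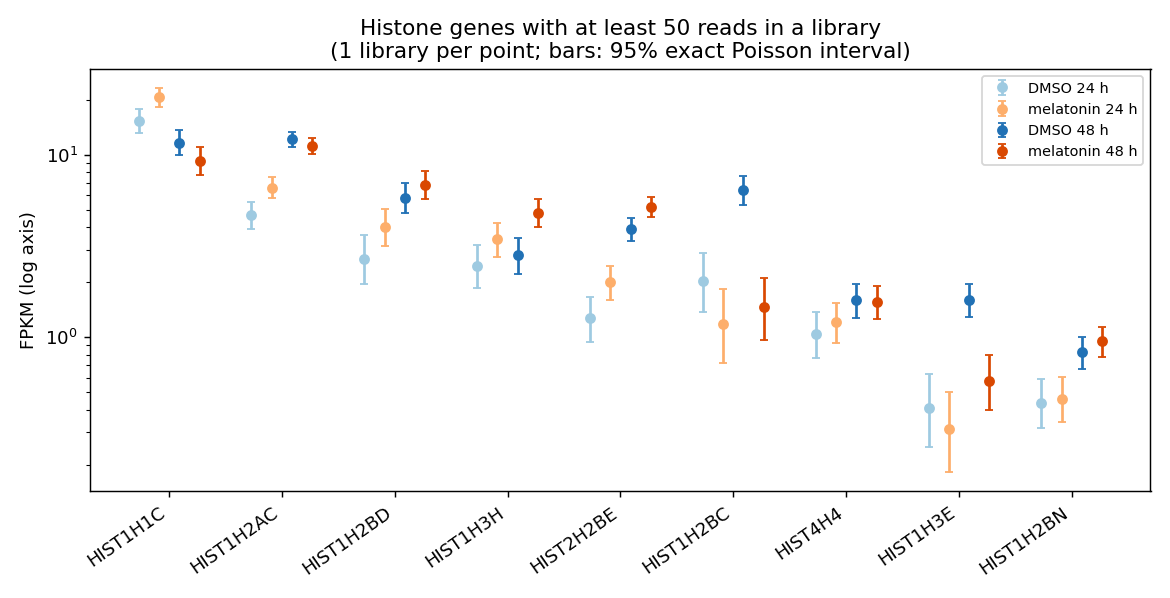
FPKM on a log axis of the 9 histone genes that reached 50 reads in a library, 1 point per library, with 95% exact Poisson intervals that cover counting error only. HIST1H1C was highest at 24 h and lower at 48 h, whereas HIST1H2AC, HIST1H2BD, HIST2H2BE, HIST4H4 and HIST1H2BN were higher in both 48 h libraries than in both 24 h libraries, and HIST1H2BC and HIST1H3E stood out in the DMSO 48 h library.

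Among the H1 genes, reads came almost entirely from HIST1H1C (ENSG00000187837, chr6:26055787-26056428, a coding-sequence model of 642 bp), which encodes the linker histone H1.2. It took 181, 269, 164 and 132 reads in the order 24 h DMSO, 24 h melatonin, 48 h DMSO, 48 h melatonin, which is 15.4, 20.7, 11.6 and 9.26 FPKM. It was thus highest with melatonin at 24 h and lowest with melatonin at 48 h. HIST1H1E, which encodes H1.4, took 4, 9, 15 and 11 reads, and HIST1H1A, HIST1H1B, HIST1H1D and HIST1H1T took 2 reads or fewer in every library. The highest H1 gene by FPKM was the replication-independent H1F0, at 333, 404, 429 and 357 FPKM.

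Among the H2A genes, HIST1H2AC (ENSG00000180573, chr6:26124145-26139116, a model of 1668 bp that runs past the stem-loop) held 143, 223, 445 and 414 reads, or 4.67, 6.59, 12.2 and 11.2 FPKM. Its level at 48 h was above that at 24 h under both treatments, without overlap. Per length it lay below HIST1H1C in both 24 h libraries, while the Poisson intervals of these genes overlapped in both 48 h libraries. HIST2H2AC (chr1:149886975-149887364, coding sequence alone, 390 bp) moved the other way with time, from 37 and 46 reads at 24 h to 20 and 24 at 48 h. HIST1H2AI took 37, 34, 29 and 32 reads, a narrow range. HIST2H2AA3 and HIST2H2AA4, identical copies whose reads cannot be assigned with certainty, took 0 to 5 and 0 to 3 reads.

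Among the H2B genes, 4 reached 50 reads in a library, and all 4 models run past the stem-loop. HIST2H2BE (chr1:149884459-149886652) took 51, 89, 188 and 252 reads, or 1.27, 2.00, 3.91 and 5.17 FPKM, and so was higher with melatonin at each time and higher at 48 h under each treatment. HIST1H2BD took 43, 71, 111 and 132 reads and HIST1H2BN 44, 51, 99 and 115, in the same order of libraries. HIST1H2BC (chr6:26114873-26123926) took 31, 20, 117 and 27 reads, or 2.02, 1.18, 6.40 and 1.46 FPKM, so that 1 library, DMSO at 48 h, stood apart from the rest. HIST1H2BE, whose model also runs past the stem-loop, took 1 and 2 reads at 24 h and 22 and 23 at 48 h. HIST1H2BK, a coding-sequence model, took 17, 9, 24 and 29 reads. H2B coding sequences resemble each other, and 47.1% of the 50-base stretches of HIST2H2BE, 36.5% of HIST1H2BN and 14.3% of HIST1H2BC occur in another member, so reads within them could have been assigned to a sister gene. The span of HIST1H2BN holds HIST1H2AK and HIST1H2AL, and HIST1H2BD overlaps the antisense gene AL353759.1, which took 0, 2, 5 and 1 reads.

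Among the H3 genes, HIST1H3H took 56, 86, 76 and 132 reads and HIST1H3E (chr6:26224199-26227473) took 20, 17, 94 and 34, the latter again highest with DMSO at 48 h. HIST1H3C, a coding-sequence model, took 13, 7, 4 and 5 reads. Among 16 H3 genes, 10 encode the same protein of 136 residues, so these reads are spread over genes with 1 product. HIST3H3, which encodes a testis form of H3, took 1 read with melatonin at 48 h and none elsewhere.

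Among the H4 genes, HIST4H4 (chr12:14767999-14771131, a model of 2578 bp) led by reads, with 49, 63, 90 and 89, or 1.04, 1.20, 1.59 and 1.55 FPKM. HIST1H4K took 6, 10, 19 and 26 reads and HIST1H4J, whose coding sequence is identical to it, took 15, 5, 15 and 9, so the split between them is uncertain. Of the 15 H4 genes, 14 encode the same protein of 103 residues.

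**Figure D2:**
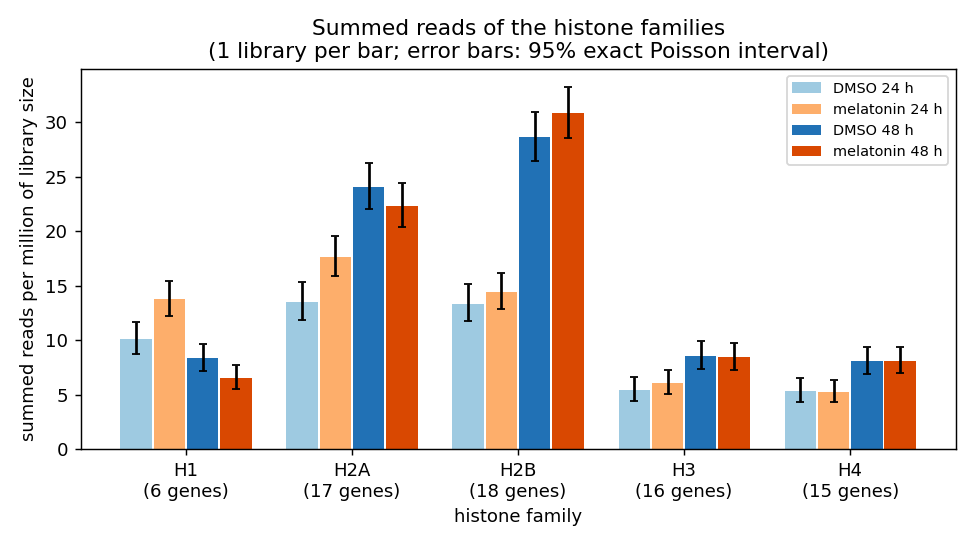
Summed reads of each histone family, scaled to the library size that the FPKM values imply, 1 bar per library, with 95% exact Poisson intervals of the counts. H2A, H2B, H3 and H4 were higher in both 48 h libraries than in both 24 h libraries, while H1 was highest with melatonin at 24 h and lowest with melatonin at 48 h.

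For melatonin against DMSO at 24 h, few members moved far. Of the 72 members, 18 reached FPKM 1 in 1 of the libraries compared or both, and 1 of these (5.56%) differed by 2-fold or more on the log2(FPKM + 1) scale, beside 4.35% of the 13582 genes that passed the same minimum. That member was HIST2H2AB, an H2A gene, which had no read with DMSO and 10 with melatonin, at least 3.02-fold higher against a floor of 3 reads. It overlaps BOLA1 on the other strand, which took 20 and 19 reads in these libraries. Of the 18, 10 lay above 0 and 8 below, with a median log2 fold change of 0.13 against 0.02 for all genes tested. The share past 2-fold was near the background. The 9 well-covered members held 90 to 445 reads in their highest library, and the 3852 genes of the files whose highest library lay in the same range serve as their background. Of the 9, 4 had a read ratio above 1 with an interval that left out 1, beside 22.9% of that background, and 0 had one below 1, beside 19.6%. The 4 were HIST2H2BE (1.58, 95% exact binomial interval 1.11 to 2.27), HIST1H2BD (1.49, 1.01 to 2.24), HIST1H2AC (1.41, 1.14 to 1.75) and HIST1H1C (1.35, 1.11 to 1.63). Such intervals here and later cover counting error only, which is smaller than the spread between cultures would be. The reads of all members together were higher with melatonin, at 1.20 (1.10 to 1.31) relative to library size, and the HIST2 cluster stood at 1.62 (1.25 to 2.12), with HIST2H2BE giving 89 of its 165 melatonin reads.

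For melatonin against DMSO at 48 h, 16 members passed the FPKM minimum and 1 (6.25%) passed 2-fold, beside 5.72% of 13805 genes. That member was HIST1H2BC, lower with melatonin by a log2 fold change of -1.59. Its read ratio was 0.228 (0.144 to 0.349). HIST1H3E, with 94 reads under DMSO and 34 under melatonin, had a read ratio of 0.357 (0.234 to 0.534) and a log2 fold change of -0.73, since the added 1 shrinks changes of low genes. HIST1H3H and HIST2H2BE went the other way, with read ratios of 1.72 (1.28 to 2.31) and 1.32 (1.09 to 1.61). The other 5 well-covered members had intervals that held 1. The 2 of 9 above 1 stand beside 31.9% of the 3852 genes in the same range of reads and the 2 below 1 beside 25.2%. HIST1H2BC and HIST1H3E counted as well covered only through the DMSO 48 h library, so a minimum of 50 reads in any library favoured members that were high there. With a mean of at least 50 reads over the libraries, a minimum chosen after seeing the data, 7 members remained with 0 below 1. No share of all genes is given for that minimum. Of the 16, 9 lay above 0 and 7 below, the median log2 fold change was 0.07 against -0.02 for all genes tested, and the summed reads stood at 0.982 (0.918 to 1.05).

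HIST2H2BE was the well-covered member whose interval lay above 1 with melatonin at both times. HIST1H2BC and HIST1H3E, lower with melatonin at 48 h, had 24 h read ratios of 0.584 (0.315 to 1.06) and 0.769 (0.378 to 1.55), so at 24 h their differences were not detectable at this depth. Whether any effect differed between the times was not tested.

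With time, members passed 2-fold in both directions. From 24 h to 48 h with DMSO, 19 members passed the FPKM minimum and 4 (21.1%) passed 2-fold, beside 7.74% of 13854 genes. HIST1H2BC, HIST1H2AC and HIST2H2BE were higher, with log2 fold changes of 1.29, 1.22 and 1.11, and HIST1H2AJ, which fell from 10 reads to 1, was lower at -1.11, with a read ratio of 0.0837 (0.00193 to 0.588). From 24 h to 48 h with melatonin, 16 passed the minimum and 4 (25%) passed 2-fold, beside 4.15% of 13489 genes. HIST2H2BE (1.04) and HIST1H2BK (1.03, from 9 reads to 29) were higher, and HIST1H1C (-1.08) and HIST2H2AB (from 10 reads to 0, at least 3.65-fold lower) were lower. Among members that passed the FPKM minimum, HIST2H2BE was thus the 1 past 2-fold on the log2(FPKM + 1) scale with time under both treatments. HIST1H2BE, which went from 1 read to 22 with DMSO and from 2 to 23 with melatonin, stayed below that minimum. HIST1H2AJ passed the minimum only through the 24 h DMSO library, and HIST2H2AB only through the 24 h melatonin library. The same 10 reads put HIST2H2AB past 2-fold at 24 h and with time. With at least 50 reads in a compared library, 3 of 8 members passed 2-fold with DMSO, beside 4.88% of genes. With melatonin 2 of 6 passed, beside 1.2%. HIST1H2BC met that read minimum only through the DMSO 48 h library. The medians over the members tested were 0.17 with DMSO and 0.27 with melatonin, against 0.00 and -0.04 for all genes tested.

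Of the 9 well-covered members, 7 had an interval of the read ratio above 1 with DMSO and 1 below, beside 29.0% and 29.0% of the 3852 genes in the same range of reads. With melatonin 5 lay above 1 and 1 below, beside 24.0% and 21.0%. The 7 include HIST1H2BC and HIST1H3E, which the minimum admitted through the DMSO 48 h library. Over the 7 members with a mean of at least 50 reads, 5 lay above 1 and 1 below under each treatment. No share of all genes is given for that minimum, so these counts have no background. HIST1H2AC stood at 2.60 (2.15 to 3.17) with DMSO and 1.70 (1.44 to 2.00) with melatonin, HIST2H2BE at 3.09 (2.25 to 4.29) and 2.59 (2.02 to 3.33), and HIST1H2BD at 2.16 (1.51 to 3.15) and 1.70 (1.26 to 2.30). HIST1H3E had the largest ratio of the 9 with DMSO, 3.93 (2.41 to 6.73), and stood at 1.83 (0.993 to 3.49) with melatonin. HIST1H1C was the well-covered member with intervals below 1, at 0.758 (0.610 to 0.942) with DMSO, which became 1.08 after rescaling to TPM, in which the values of every library have the same sum, and at 0.448 (0.361 to 0.554) with melatonin. The rescaling to TPM raised the median log2 fold change of all genes tested from 24 h to 48 h to 0.42 with DMSO and 0.20 with melatonin, so a ratio near 1 on that scale lies below most genes. Relative to the library size that the FPKM values imply, all members together stood at 1.63 (1.5 to 1.77) with DMSO and 1.33 (1.24 to 1.44) with melatonin. Relative to the plain sum of reads on genes they stood at 1.82 and 1.46. Their summed FPKM, in which short models weigh more, stood at 1.24 and 1.03. In bulk RNA, a change in the share of cells that express these genes and a change in RNA per cell cannot be told apart.

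Grouped by the end of their gene model, a split chosen after seeing the data, the members differed in their reads at 48 h. The 25 members modelled past the stem-loop took 506, 695, 1338 and 1371 reads, while the 33 modelled as coding sequence took 289, 379, 249 and 234 and the 13 longer models that end near the stem-loop took 81, 85, 110 and 83. The first set thus held more reads in each 48 h library than in either 24 h library, and the coding-sequence set held fewer. The share of histone reads on models past the stem-loop was 57.7% and 59.9% at 24 h and 78.6% and 80.9% at 48 h, a share within each library that does not depend on how libraries are scaled.

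Relative to library size, the set past the stem-loop stood at 2.21 (2.00 to 2.46) from 24 h to 48 h with DMSO and 1.80 (1.64 to 1.98) with melatonin. It kept ratios of 2.06 (1.82 to 2.33) and 1.85 (1.66 to 2.07) when HIST1H2AC, its largest member, was left out. The coding-sequence set stood at 0.721 (0.606 to 0.857) with DMSO, which became 1.02 on the TPM scale, and at 0.564 (0.477 to 0.666) with melatonin. Without HIST1H1C, which gave 269 of the 379 melatonin reads at 24 h, the coding-sequence set stood at 0.659 (0.490 to 0.884) with DMSO and 0.847 (0.641 to 1.12) with melatonin, so under melatonin its low ratio rested on that gene. HIST1H4K and HIST1H2BK, both coding-sequence models, did not follow their set, since each took more reads in both 48 h libraries than in both 24 h libraries. The set that ends near the stem-loop stood at 1.14 (0.845 to 1.53) with time under DMSO and 0.892 (0.651 to 1.22) under melatonin, and for melatonin over DMSO at 0.950 (0.692 to 1.30) at 24 h and 0.745 (0.554 to 1.00) at 48 h. Of these, 0.892 and 0.950 turned to 1.08 and 1.07 on the TPM scale. A coding-sequence model counts no read that lies past the stop codon, and whether the reads of the longer models lay before or past the stem-loop is not given by gene totals and was not tested.

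**Figure D3:**
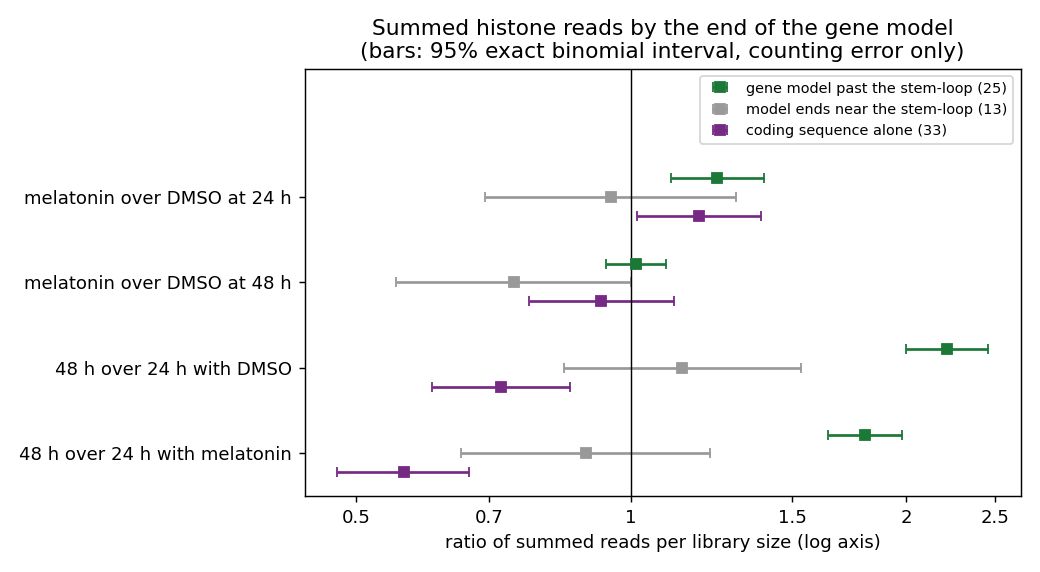
Ratio of summed reads per library size on a log axis for members whose model runs past the stem-loop, is shorter but ends near it, or holds the coding sequence alone, in the 4 comparisons, with 95% exact binomial intervals. With time the set past the stem-loop lay to the right of 1 and the coding-sequence set to the left under both treatments (with DMSO at 1.02 on the TPM scale), and the set that ends near the stem-loop lay lowest in the comparison of melatonin with DMSO at 48 h, at 0.745.

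The annotation gave a similar split. The 18 members with an annotated transcript past the stem-loop took 450, 646, 1268 and 1275 reads, a ratio from 24 h to 48 h of 2.36 (2.12 to 2.63) with DMSO and 1.80 (1.64 to 1.98) with melatonin. The other 54 took 427, 515, 435 and 419 reads, a ratio of 0.853 (0.744 to 0.977) with DMSO, which became 1.21 on the TPM scale, and 0.743 (0.652 to 0.847) with melatonin. The sets overlap with those made from the gene models and are not separate evidence.

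By family, H2B reads stood at 2.14 (1.85 to 2.49) from 24 h to 48 h with DMSO and 2.14 (1.86 to 2.46) with melatonin, and H2A reads at 1.78 (1.53 to 2.08) and 1.27 (1.10 to 1.45). H3 reads stood at 1.57 (1.23 to 2.03) and 1.38 (1.10 to 1.75), and H4 reads at 1.51 (1.17 to 1.96) and 1.54 (1.20 to 1.97). H1 was lower at 48 h, at 0.824 (0.668 to 1.02) with DMSO, which turned to 1.17 on the TPM scale, and 0.475 (0.386 to 0.583) with melatonin. These H1 values are in effect those of HIST1H1C. The H2A and H3 ratios also leaned on single genes. HIST1H2AC gave 143 of 248, 223 of 358, 445 of 528 and 414 of 496 H2A reads in the same order of libraries. HIST1H3E gave 20 of 100 H3 reads with DMSO at 24 h and 94 of 188 at 48 h. By summed FPKM, H2A stood at 1.16 from 24 h to 48 h with DMSO and 0.849 with melatonin, and H3 at 0.963 and 1.19.

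Histone genes often lie head to head, with an H2A and an H2B gene transcribed away from a shared stretch of DNA. There were 13 such pairs of members with at most 500 bases between their starts, 11 of them an H2A with an H2B gene, and 2 pairs held at least 50 reads in every library. Because both genes of a pair are read in the same library, the share of each is free of library scaling. The stretch between HIST2H2BE and HIST2H2AC is shown first because this pair diverged with time. It is the HIST2H2BE promoter (RefSeq, GRCh38.p14, minus strand, 250 bases before to 50 after the start), with the TATAAA box, the CCAAT box and the octamer ATTTGCAT in capitals on either strand, and no AAACACA box.
HIST2H2BE, chr1:149886633-149886932: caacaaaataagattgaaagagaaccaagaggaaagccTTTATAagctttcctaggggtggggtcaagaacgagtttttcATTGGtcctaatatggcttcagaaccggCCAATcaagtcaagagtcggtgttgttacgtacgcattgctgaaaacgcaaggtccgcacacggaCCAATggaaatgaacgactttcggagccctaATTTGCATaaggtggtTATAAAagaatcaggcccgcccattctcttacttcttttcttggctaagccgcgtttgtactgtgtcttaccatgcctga
The pair that differed with treatment is shown next by the HIST1H2BC promoter, with the same marks and on the minus strand.
HIST1H2BC, chr6:26123877-26124176: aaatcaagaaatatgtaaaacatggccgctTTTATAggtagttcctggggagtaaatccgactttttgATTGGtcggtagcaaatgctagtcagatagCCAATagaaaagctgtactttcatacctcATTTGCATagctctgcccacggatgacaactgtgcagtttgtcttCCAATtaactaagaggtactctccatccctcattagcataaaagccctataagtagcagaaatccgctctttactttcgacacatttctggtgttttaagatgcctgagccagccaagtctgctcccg
A match of these letters is a description of the sequence and does not show that a factor bound there.

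Of the reads of the first pair, HIST2H2BE held 58.0% (47.0 to 68.4, exact binomial interval) and 65.9% (57.3 to 73.9) in the 24 h DMSO and melatonin libraries, and 90.4% (85.5 to 94.0) and 91.3% (87.3 to 94.3) in those of 48 h. The interval of neither 48 h library overlapped that of either 24 h library, and within each time the intervals of the treatments overlapped. HIST2H2BE is modelled past its stem-loop and HIST2H2AC as coding sequence. Of the reads of the second pair, HIST1H2BC held 17.8% (12.4 to 24.3) and 20.8% (17.5 to 24.4) in the DMSO libraries of 24 h and 48 h, against 8.23% (5.10 to 12.4) and 6.12% (4.07 to 8.78) in the melatonin libraries. In this pair, whose models both run past the stem-loop, the share was lower with melatonin at both times, with intervals that just missed each other at 24 h and lay apart at 48 h. Within a treatment the intervals of the times overlapped.

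**Figure D4:**
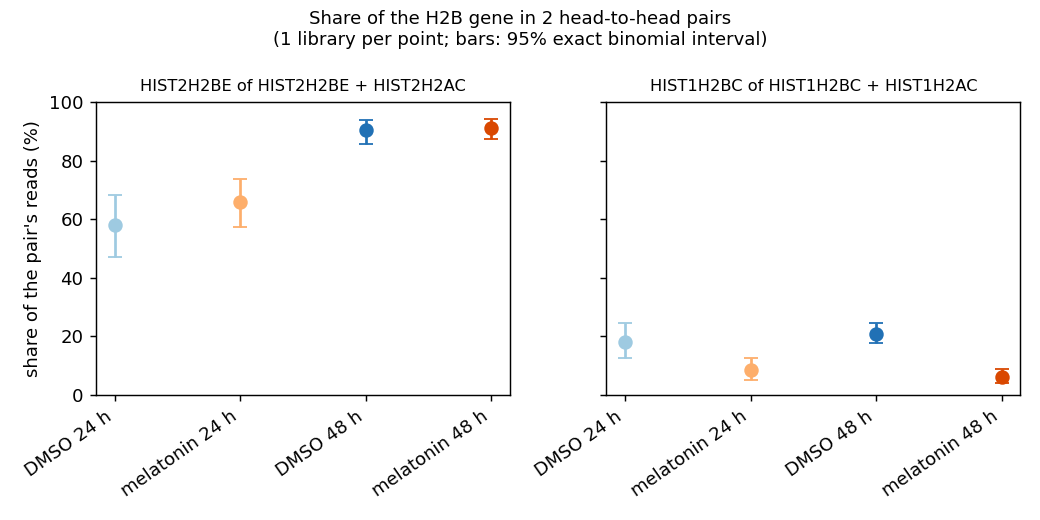
Share of the H2B gene among the reads of 2 head-to-head H2B and H2A pairs in percent, 1 point per library, with 95% exact binomial intervals. HIST2H2BE lay at 58.0% and 65.9% at 24 h and at 90.4% and 91.3% at 48 h, and HIST1H2BC lay at 17.8% and 20.8% with DMSO and at 8.23% and 6.12% with melatonin.

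Promoters in RefSeq were matched for 66 members. Searched on both strands, TATAAA was held by 66.7% of them against 11.5% of all 35116 promoters of the same length, CCAAT by 84.8% against 34.6%, ATTTGCAT by 37.9% against 1.77% and AAACACA by 13.6% against 5.64%. The families differed in these letters. ATTTGCAT, the octamer known as a binding site of POU2F1, stood in 14 of 18 H2B and 11 of 16 H2A promoters, which often cover the same DNA, and in 0 of the H1, H3 and H4 promoters. AAACACA, known as the H1 box, stood in 6 of 6 H1 promoters, and CCAAT in 3 of 13 H4 promoters against all promoters of the other families.

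Few genes that make, cut or degrade histone mRNA passed 2-fold. A list of 14 genes of histone pre-mRNA 3' end processing had 0 genes past 2-fold in any of the 4 comparisons on this scale. SLBP, which binds the stem-loop, stood at 21.8, 21.7, 18.7 and 21.2 FPKM in the order 24 h DMSO, 24 h melatonin, 48 h DMSO, 48 h melatonin. LSM11, a U7 protein, stood at 2.82, 3.65, 2.17 and 3.06, and CASP8AP2 (FLASH), which joins the cutting complex, at 2.35, 2.76, 1.45 and 2.78. A list of 15 genes of histone mRNA degradation also had 0 past 2-fold in the 4 comparisons on this scale, with the exonuclease ERI1 at 2.36, 2.68, 2.24 and 2.29 FPKM. Of all genes tested, 4.35% and 5.72% passed 2-fold with melatonin at 24 h and 48 h. With time 7.74% passed under DMSO and 4.15% under melatonin, so counts of 0 do not set lists this short apart. Without the added 1, 1 degradation gene was past 2-fold lower with time under DMSO. On the TPM scale 1 was higher with time under each treatment. SLBP and ERI1 thus kept a narrow range over the libraries.

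Of 9 genes that control transcription of the clusters, 8 passed the FPKM minimum. NPAT, the coactivator of the clusters, stood at 2.08, 2.17, 1.61 and 1.70 FPKM. CCNE1, the cyclin E1 of the kinase that acts on NPAT, was past 2-fold higher with melatonin at 48 h (4.36 to 10.7 FPKM), and its relative CCNE2 stood at 0.347, 0.460, 0.404 and 0.819. CDC25A, a phosphatase that activates that kinase, was past 2-fold lower from 24 h to 48 h with DMSO (10.9 to 4.33 FPKM).

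An S phase list of 18 genes was lower with time under DMSO, but for 1 gene on the TPM scale, and higher with melatonin at 48 h. From 24 h to 48 h with DMSO all 18 were lower and 12 of them passed 2-fold, with a median log2 fold change of -1.37. The histone median in the same comparison was 0.17. The histone sets differed by read ratio, a measure unlike this median, as given above. The set modelled past the stem-loop stood at 2.21 and the coding-sequence set at 0.721, or 1.02 on the TPM scale. With melatonin against DMSO at 48 h all 18 were higher under each of the scalings, 4 passed 2-fold on the log2(FPKM + 1) scale and 7 without the added 1, and the median was 0.77, beside 0.07 for the histone genes. The 4 were E2F1 (17.2 to 70.0 FPKM), GINS2 (3.24 to 8.58), TK1 (16.5 to 37.4) and CDC6 (4.23 to 10.1). PCNA, the replication clamp, stood at 96.3, 93.8, 59.8 and 97.5 FPKM, so that DMSO at 48 h was its low library. At 24 h the S phase median was -0.03 with 8 genes above 0 and 10 below, and from 24 h to 48 h with melatonin it was -0.51 with 0 past 2-fold on that scale and 2 lower without the added 1, which became 0 on the TPM scale.

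Histone chaperones, which carry histones to DNA, were mostly lower with time, though not on the TPM scale under DMSO. Of 18 tested, 14 lay below 0 with time under DMSO, with a median log2 fold change of -0.39, and 15 under melatonin. On the TPM scale 9 lay below under DMSO and 11 under melatonin. With melatonin against DMSO 11 lay below 0 at 24 h and 9 at 48 h. With time under DMSO 2 of the 18 were past 2-fold lower, beside 7.74% of all genes in either direction, and 4 were without the added 1. The 2 were ASF1B (12.6 to 2.71 FPKM) and MCM2 (42.4 to 11.8). ASF1B was also past 2-fold higher with melatonin at 48 h (2.71 to 9.77), beside 5.72% of all genes. CHAF1A, a subunit of the assembly factor CAF-1, stood at 15.1, 15.5, 8.67 and 12.7 FPKM in the order 24 h DMSO, 24 h melatonin, 48 h DMSO, 48 h melatonin.

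The replication-independent variants far exceeded the clusters per length in these libraries. Variant mRNAs carry a poly(A) tail, the usual cluster mRNA has none, and the methods describe polyadenylated RNA. The levels therefore need not reflect the proportion in the cells. H1F0, with the levels given above, held the largest part of the variant sum. Summed over 12 variants the level was 751, 842, 734 and 681 FPKM in the same order, against 57.0, 64.3, 70.5 and 66.5 summed over the 72 members. H2AFZ stood at 73.7, 70.2, 52.5 and 49.2 FPKM, H3F3A at 39.7, 36.5, 33.2 and 30.0, and H3F3B at 67.1, 74.5, 52.7 and 65.7. H2AFX is the variant phosphorylated at DNA breaks, and its gene is known to yield mRNA both with a stem-loop end and with a poly(A) tail. It stood at 97.2, 107, 42.1 and 61.1 FPKM. On the log2(FPKM + 1) scale it was the variant past 2-fold in a comparison, from 24 h to 48 h with DMSO, though not on the TPM scale. Without the added 1, 1 variant other than H2AFX was past 2-fold lower with time under melatonin, which became 0 on the TPM scale. The median log2 fold change of the 11 variants tested was 0.14 with melatonin at 24 h and 0.03 at 48 h, and -0.35 with time under each treatment, where the DMSO value turned to 0.14 on the TPM scale.

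**Figure D5:**
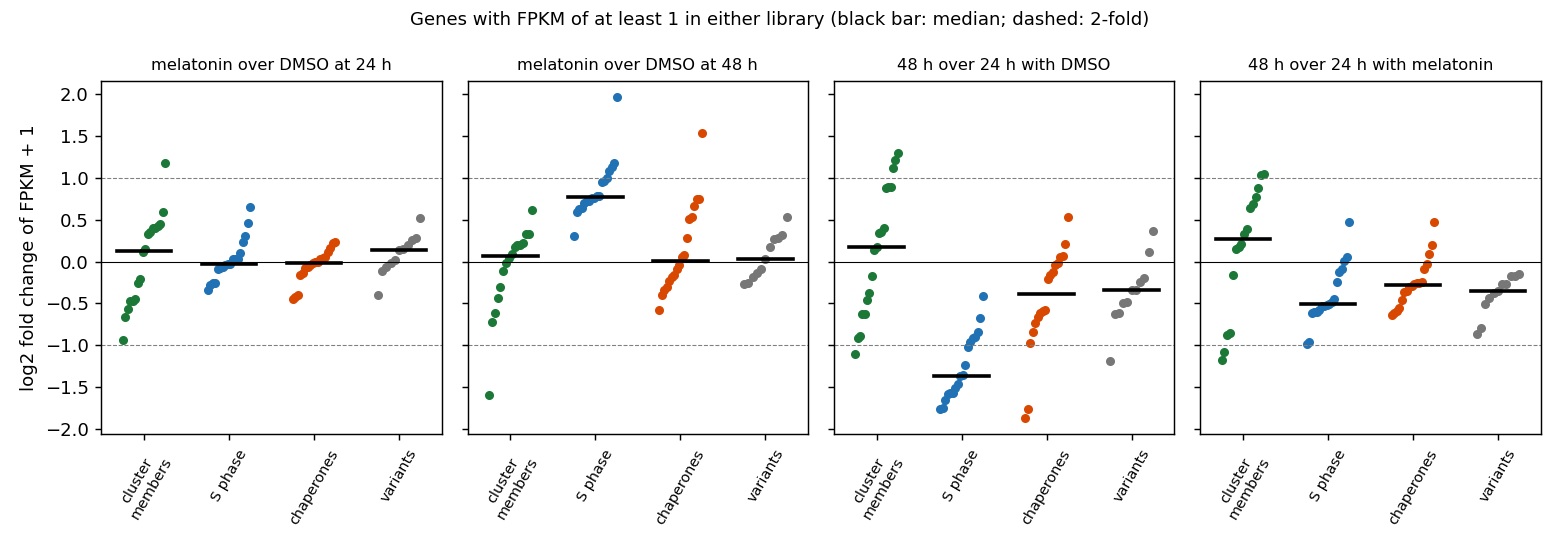
Log2 fold change of FPKM + 1 in the 4 comparisons for histone cluster genes, S phase genes, histone chaperones and replication-independent variants that reached FPKM 1 in a compared library, 1 point per gene, with the median as a black bar and 2-fold as dashed lines. With time under DMSO the S phase median lay at -1.37 and the histone cluster median at 0.17, and with melatonin at 48 h they lay at 0.77 and 0.07.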

How the data were processed

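HepG2 RNA was sequenced as paired-end reads from 4 libraries. The values deposited by the authors are FPKM per gene with the length of each gene model. The study's methods name MapSplice, hg38 and Cufflinks, whereas the submitters' processing notes name Bowtie2 2.0.6, TopHat2 2.0.9, Cufflinks 2.1.1 and Cuffdiff 2.1.1, with no role given. How reads were counted on strand and among copies is not given in the sources used here. The methods describe polyadenylated RNA but name a total RNA kit.

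FPKM times model length gave whole reads for 100% of values within 0.05 reads, so reads were recovered and each library size was derived (18357838 to 22205042). Each derived size lay below the reads on genes. With DMSO at 24 h it was 18357838 against 21616676, and with melatonin at 48 h 22205042 against 22820651. Library size here is thus the scale that the FPKM values imply, not a count of reads. Recovery was tested on simulated data. Genes that reached FPKM 1 in a compared library were taken as log2 of FPKM + 1, with a 2-fold threshold. With 1 library per condition no test against the spread between cultures was run. Intervals of read ratios were set against 1 and counted, which weighs counting error alone. Ratios of reads have 95% exact binomial intervals, single levels 95% exact Poisson intervals, and a floor of 3 reads stood for zero, all for counting error only. At a model of 381 bp, 3 reads equal 0.355 to 0.429 FPKM.

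Stem-loops were sought in hg38 within 150 bases after the stop codon of the GENCODE 44 coding sequence (67 members by identifier, 5 by a RefSeq synonym), and promoters came from RefSeq GRCh38.p14. Named members were the highest by FPKM with at least 50 reads, the top 2 of each family and cluster, and the 5 largest rises and falls, and those past 2-fold. Other members were named after their values were seen. The members and lists were chosen with earlier results of these data known, as were the split by gene model end and the pair shares. Alternatives in pseudocount, filter, threshold and scaling were tried. Python 3.11.15, numpy 2.4.6, pandas 2.3.3, scipy 1.17.1 and matplotlib 3.10.9 were used.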

Additional observations from a re-analysis of the deposited data

Results flagged for a closer look

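Among the well-covered members, 3 lay on opposite sides of 1 with melatonin at the 2 times, and these differences were not tested. HIST1H2AC had a read ratio of melatonin over DMSO of 1.41 at 24 h and 0.919 at 48 h, the latter with an interval that held 1. HIST1H1C had ratios of 1.35 at 24 h and 0.795 at 48 h, where the interval (0.627 to 1.01) also held 1. HIST4H4 had ratios of 1.16 and 0.977, both with intervals that held 1.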

How the results depend on the processing

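No paired analysis was possible because each condition has 1 library, and for the same reason no library could be left out. Under alternative settings 91 values stayed within 1.5 times of a count, within the spread of the members around a median, or within the counting interval of a ratio, while 19 values moved, 8 counts rose and 6 fell. The cause of these moves was not tested. Shares of all genes tested under the same setting stand in brackets. The count of members past 2-fold was 1 for melatonin at 24 h, and became 3 of 18 with a pseudocount of 0.1 (8.89%), 4 of 18 at 1.5-fold (11.6%), 0 of 3 with an FPKM of at least 5 (1.64%) and 0 of 6 with at least 50 reads (0.864%). At 48 h it was 1, and became 3 of 16 with the pseudocount (12.1%) and 4 of 16 at 1.5-fold (18.7%). With time under DMSO it was 4 of 19, and became 11 with the pseudocount (2079 of 13854 genes), 11 at 1.5-fold (23.8%), 6 on the TPM scale (12.3%), 5 of 18 with library size as the plain sum (7.78%), 3 of 8 with at least 50 reads (4.88%) and 2 of 5 with an FPKM of at least 5 (7.35%). With time under melatonin it was 4 of 16, and became 8 with the pseudocount (8.6%), 10 at 1.5-fold (12.8%), 2 of 5 with an FPKM of at least 5 (2.17%) and 2 of 6 with at least 50 reads (1.2%). The median log2 fold change ranged over all settings from 0.03 to 0.40 for melatonin at 24 h, from -0.11 to 0.11 at 48 h, where its sign was thus not kept, from 0.16 to 0.89 with time under DMSO and from 0.14 to 0.64 under melatonin. The 0.89 came with at least 50 reads in a compared library, a minimum that favours members high in the DMSO 48 h library, and with a mean of at least 50 reads over the libraries, added after seeing the data, it was 0.62. Under that minimum, for which no share of all genes is given, the count of intervals below 1 for melatonin at 48 h fell from 2 to 0. The ratio of summed FPKM for melatonin over DMSO moved from 1.13 to 1.27 on the TPM scale at 24 h, and from 0.944 to 0.861 at 48 h without models over 1000 bp. With time under DMSO it moved from 1.24 to 1.76 on the TPM scale, 1.38 when library size was the plain sum of reads, 1.63 when reads were summed, 1.41 without HIST1H1C and 0.995 without models over 1000 bp. With time under melatonin it moved from 1.03 to 1.25, 1.13, 1.33, 1.31 and 0.793 in the same order. Added after seeing the data, the read ratio of models past the stem-loop moved with time under DMSO from 2.21 to 3.14 on the TPM scale and 2.48 with the plain sum, and under melatonin from 1.80 to 2.18 on the TPM scale. The coding-sequence ratio moved from 0.721 to 1.02 under DMSO on the TPM scale, and under melatonin from 0.564 to 0.683 on the TPM scale and 0.847 without HIST1H1C. The depth limits every member below 50 reads, which is 63 of 72.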

Other observations

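The 15 cluster genes that are not protein coding took few reads. The most were on HIST2H2BC, an H2B pseudogene on chromosome 1, with 9, 6, 28 and 10 reads in the order 24 h DMSO, 24 h melatonin, 48 h DMSO, 48 h melatonin. Like HIST1H2BC and HIST1H3E it was highest in the DMSO 48 h library. In every library 5 genes gave over 55% of the summed histone FPKM. HIST1H1C led at 24 h with 27.0% and 32.1%, and HIST1H2AC led at 48 h with 17.3% and 16.8%.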
